A study of Caenorhabditis elegans with 2 samples.

Results

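Small nucleolar RNA (snoRNA) genes were examined for binding by GEI-8::GFP in whole L4 larvae of Caenorhabditis elegans. All 346 nuclear genes that the Ensembl annotation of WBcel235 calls snoRNA were taken, of 46890 nuclear genes in all. Chromatin immunoprecipitation with sequencing was done with an anti-GFP antibody on 2 biological replicates, which form 1 group. Both replicates are strain OP589, which carries unc-119(tm4063) and the transgene wgIs589, a fusion of gei-8 to TY1, EGFP and 3xFLAG tags together with unc-119(+), so the tagged protein comes from a transgene. The animals were pooled males and females, 48 hours old, grown after starvation at the L1 stage. Whole animals were used, so a peak cannot be assigned to a tissue, and no strain without the tag was analysed here. For each replicate and for the pooled data a relaxed list of 30000 peaks was deposited, with a further list of 1053 reproducible peaks. Those 1053 are the 1053 strongest peaks of the pooled list, with 1053 of 1053 identical in position and summit.

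GEI-8 is the worm relative of the nuclear receptor corepressors NCoR and SMRT, which join DNA-bound factors to histone deacetylases. SnoRNAs are short nuclear RNAs that guide chemical modification of ribosomal and spliceosomal RNA. Those of the box C/D class direct 2′-O-methylation and those of the box H/ACA class direct pseudouridylation. In animals most snoRNAs are cut out of the introns of a host messenger RNA precursor, while others are transcribed from promoters of their own. RNA polymerase III transcribes tRNA genes from an A box and a B box that lie inside the gene, and stops at a run of T. When such boxes precede a snoRNA, they form a tRNA-like leader upstream of it.

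A snoRNA gene was called when the strongest pooled peak with a summit within 200 bp of its body was among the 1053 reproducible peaks. The locus of T03F7.8 is shown whole because it holds an A box, a B box and a run of T within 1 peak of rank 16. It lies at chrV:11314188-11314362 on the plus strand, from 70 bases before the gene to 30 after it. Capitals mark the A box, the B box and the first run of T past the 3′ end. Another annotated RNA gene, the ncRNA gene T03F7.14, lay 7 bp from the summit of this peak.

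T03F7.8 locus: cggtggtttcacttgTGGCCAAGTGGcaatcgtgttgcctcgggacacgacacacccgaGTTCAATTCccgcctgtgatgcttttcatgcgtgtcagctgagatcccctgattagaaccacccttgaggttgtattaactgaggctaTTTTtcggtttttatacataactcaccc

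The B box was searched as GTTCNANNC and the A box as GCNNAGNGG or TGGNNNAG, with N standing for any base. The next sequences are the 100 bases before and the first 10 bases of 6 further called snoRNA genes with strong peaks. Each gene has a B box near its 5′ end. The sequences are read on the strand of the gene from the RefSeq copy of WBcel235. They are shown so that the boxes can be compared between genes in different places. Capitals mark both boxes, and in C51F7.3 and Y38F2AR.14 no A box is marked.
C51F7.3 (chrV:12303608-12303717, plus strand): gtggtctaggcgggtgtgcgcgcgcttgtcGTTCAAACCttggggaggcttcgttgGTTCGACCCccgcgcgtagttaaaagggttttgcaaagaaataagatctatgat
W03C9.9 (chrII:11960798-11960907, plus strand): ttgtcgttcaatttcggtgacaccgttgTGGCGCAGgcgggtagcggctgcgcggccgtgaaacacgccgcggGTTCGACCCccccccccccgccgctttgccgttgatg
Y75B12B.12 (chrV:15191084-15191193, minus strand): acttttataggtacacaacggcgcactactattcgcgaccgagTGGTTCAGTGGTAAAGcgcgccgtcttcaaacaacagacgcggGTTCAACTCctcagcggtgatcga
F55A11.10 (chrV:11782892-11783001, plus strand): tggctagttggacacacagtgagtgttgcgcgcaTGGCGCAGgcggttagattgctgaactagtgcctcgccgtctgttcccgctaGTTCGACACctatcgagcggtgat
F32E10.10 (chrIV:7574022-7574131, plus strand): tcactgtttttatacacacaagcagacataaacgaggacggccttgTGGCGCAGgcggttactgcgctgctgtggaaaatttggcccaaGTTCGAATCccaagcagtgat
Y38F2AR.14 (chrIV:2408626-2408735, minus strand): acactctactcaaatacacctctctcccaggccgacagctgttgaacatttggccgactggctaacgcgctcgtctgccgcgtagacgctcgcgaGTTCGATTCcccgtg

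The same stretch follows for 4 called genes with strong peaks and no B box in that search. Stronger or comparable peaks lay at 3 genes described later, whose sequences are not shown. Capitals mark an A box in T06C12.16 and C27H6.5, and the letters TGTCNGC in ZK994.7, the gene with the strongest peak of all snoRNA genes. In C10C6.8 none of these letters were found in the windows searched.
ZK994.7 (chrV:8500479-8500588, plus strand): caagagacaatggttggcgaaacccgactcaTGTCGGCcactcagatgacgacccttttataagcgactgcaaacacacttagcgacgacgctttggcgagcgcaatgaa
T06C12.16 (chrV:15873917-15874026, minus strand): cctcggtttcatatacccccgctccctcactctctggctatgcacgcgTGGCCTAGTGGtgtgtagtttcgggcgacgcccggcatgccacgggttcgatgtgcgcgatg
C10C6.8 (chrIV:11474182-11474291, minus strand): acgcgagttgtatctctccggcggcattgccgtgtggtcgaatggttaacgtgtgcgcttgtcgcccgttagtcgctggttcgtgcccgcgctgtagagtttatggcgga
C27H6.5 (chrV:9970262-9970371, minus strand): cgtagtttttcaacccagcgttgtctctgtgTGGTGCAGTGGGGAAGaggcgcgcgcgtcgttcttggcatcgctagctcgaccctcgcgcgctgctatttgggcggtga

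Another 4 called genes that hold TGTCNGC upstream and no tRNA-like box are shown next. In Y67A10A.14 the summit lay 51 bp upstream, and in the other 3 it lay beyond the 3′ end. Capitals mark TGTCNGC.
Y53F4B.47 (chrII:15025884-15025993, minus strand): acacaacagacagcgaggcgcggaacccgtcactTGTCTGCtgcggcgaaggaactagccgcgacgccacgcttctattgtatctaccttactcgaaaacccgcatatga
Y67A10A.14 (chrIV:14327112-14327221, minus strand): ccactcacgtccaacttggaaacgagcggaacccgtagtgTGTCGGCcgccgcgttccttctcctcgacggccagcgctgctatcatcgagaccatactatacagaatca
Y55F3BR.9 (chrIV:867124-867233, minus strand): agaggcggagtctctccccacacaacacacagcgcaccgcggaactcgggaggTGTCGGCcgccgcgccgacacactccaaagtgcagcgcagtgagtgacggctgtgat
F01D5.12 (chrII:14018432-14018541, minus strand): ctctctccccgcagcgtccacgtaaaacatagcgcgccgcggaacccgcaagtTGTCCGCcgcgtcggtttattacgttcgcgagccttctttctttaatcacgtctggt

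Of the 346 snoRNA genes, 62 were called (17.9%, exact 95% interval 14 to 22.4%). They share 61 peaks, because C51F7.3 and C51F7.4 lie under 1 summit. By the same rule 1177 of 46544 other nuclear genes were called (2.53%), and 540 of 24631 other genes of at most 300 bp (2.19%). Of 189191 windows of 530 bp that tile the genome end to end, the length of a median snoRNA gene with its flanks, 0.544% held a reproducible summit. Among tRNA genes, 204 of 612 were called (33.3%). Intervals here cover the counting error of the genes only, and no test was run between classes of genes.

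In each replicate taken alone, with its own 1053 strongest peaks, 67 snoRNA genes were called in replicate 1 (19.4%) and 58 in replicate 2 (16.8%), a mean of 18.1% ± 1.84 (SD, n = 2). The other nuclear genes gave 2.59% in replicate 1 and 2.44% in replicate 2. Both replicates called 52 of the 62, replicate 1 alone called 9 more and replicate 2 alone called 1. A further 11 genes were called in 1 replicate and not in the pooled data. A relaxed peak of any strength lay at 170 of the 346 genes in the pooled list, and 176 had none.

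**Figure D1:**
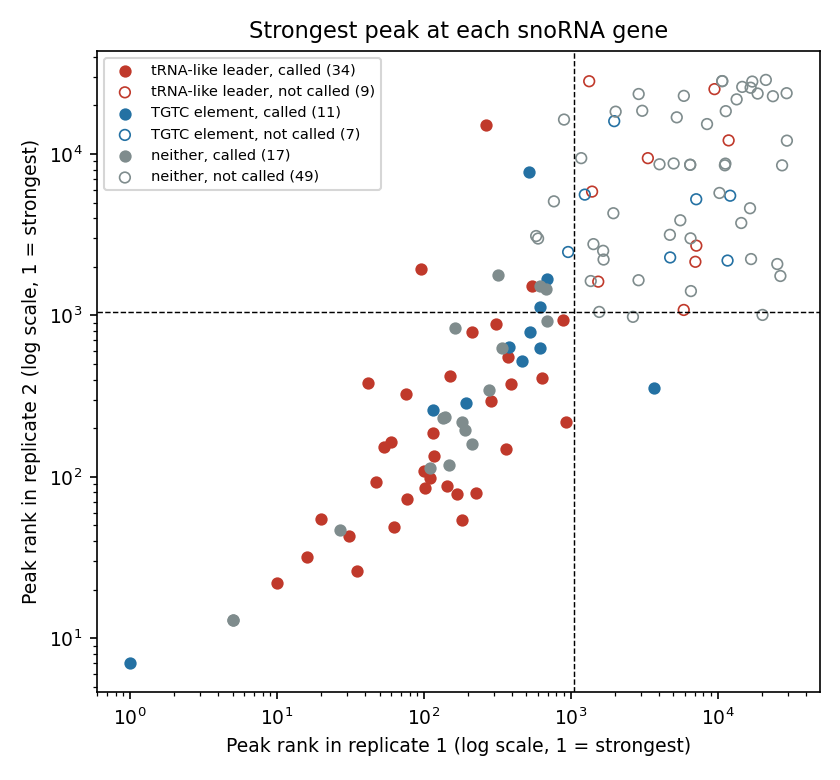
Rank of the strongest peak within 200 bp of each snoRNA gene in replicate 1 (x axis) and replicate 2 (y axis), both on log scales with 1 the strongest. Points are genes with a peak in both replicate lists, filled where called in the pooled data, coloured by upstream element, and the dashed lines stand at rank 1053. Most filled points, 52 of 62, lie below both lines.

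The strongest peak at a snoRNA gene was that of ZK994.7, a gene of 67 bp at chrV:8500579-8500645 inside an intron of pxn-1, which encodes a peroxidasin. It ranked 2 of all pooled peaks, 1 in replicate 1 and 7 in replicate 2. C51F7.3 and C51F7.4, neighbours within frm-7, followed with 1 peak of rank 7 in the pooled list, 5 in replicate 1 and 13 in replicate 2. The annotated body of C51F7.4 covers the B boxes printed above upstream of C51F7.3. T03F7.8, within the cuticlin-like gene cutl-18 on the opposite strand, ranked 16 pooled, 10 in replicate 1 and 22 in replicate 2. The intergenic W03C9.9 ranked 21 pooled, 16 in replicate 1 and 32 in replicate 2. All of these ranked 32 or better in both replicates.

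The intergenic T06C12.16 ranked 27 pooled, 35 in replicate 1 and 26 in replicate 2, and the intergenic Y75B12B.12 ranked 34 pooled, 31 in replicate 1 and 43 in replicate 2. The ranks that follow are given in that order. C10C6.8, in an intron of the P-type ATPase gene catp-8, ranked 37, 27 and 47. F55A11.10, in an intron of F55A11.6, ranked 49, 63 and 49. These 4 ranked 63 or better in both replicates. C27H6.5 lies in an intron of unc-41, which encodes a stonin-like protein of synaptic vesicle recycling, and ranked 50, 47 and 93. F32E10.10 ranked 80, 60 and 165, and Y38F2AR.14, in an intron of Y38F2AR.12, ranked 87, 181 and 54. The last pair thus differed between the replicates in opposite directions.

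Among the 15 strongest were also 3 intergenic genes whose sequences are not shown. ZK265.10 ranked 31 pooled, 20 in replicate 1 and 55 in replicate 2. Y23H5B.10 ranked 61, 77 and 73, and T02E1.9 ranked 70, 54 and 152. On the strand opposite to their hosts, the strongest after T03F7.8 were C27H5.9 in pdl-1, ZK484.9 in haf-9, which encodes a half-molecule ABC transporter, and C04G6.12 in the MAP kinase gene mpk-2. C27H5.9 ranked 88 pooled, 102 in replicate 1 and 85 in replicate 2. ZK484.9 ranked 104, 145 and 88, and C04G6.12 ranked 122, 117 and 134. All 3 ranked 145 or better in each replicate.

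The largest rank differences between replicates among called genes were at F12F6.11, C02F5.15, F47G4.9 and F30H5.4. F12F6.11 ranked 265 in replicate 1 with a signal of 114 and 15146 in replicate 2 with a signal of 27.1. C02F5.15, within fbxl-1 and rfs-1, ranked 523 in replicate 1 and 7727 in replicate 2. F47G4.9 ranked 3704 in replicate 1 and 357 in replicate 2, the only called gene within the strongest peaks of replicate 2 and not of replicate 1. F30H5.4 ranked 95 in replicate 1 and 1927 in replicate 2. The last called genes were F07A11.15 at pooled rank 794, T06D8.11 at 799 and C02F5.15 at 1001. The first outside the reproducible list were C16D9.11 at rank 1114, F17C11.24 at 1151 and ZK20.9 at 1242.

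By position, 26 of 183 snoRNA genes inside a protein-coding gene on the same strand were called (14.2%, interval 9.50 to 20.1%). On the opposite strand 8 of 33 were called (24.2%, interval 11.1 to 42.3%), and 28 of 130 intergenic ones (21.5%, interval 14.8 to 29.6%). In replicates 1 and 2 the shares were 15.3% and 13.7% on the same strand, 24.2% and 21.2% on the opposite strand, with 31 and 26 of the 130 called between genes. The 3 intervals overlap. Of the same-strand genes, 145 lie in an intron of every transcript of the host, of which 23 were called (15.9%), and 38 touch an exon of some transcript, of which 3 were called (7.89%). Of the 130 genes counted as intergenic, 6 overlap a protein-coding gene in part, and 3 of those were called.

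**Figure D2:**
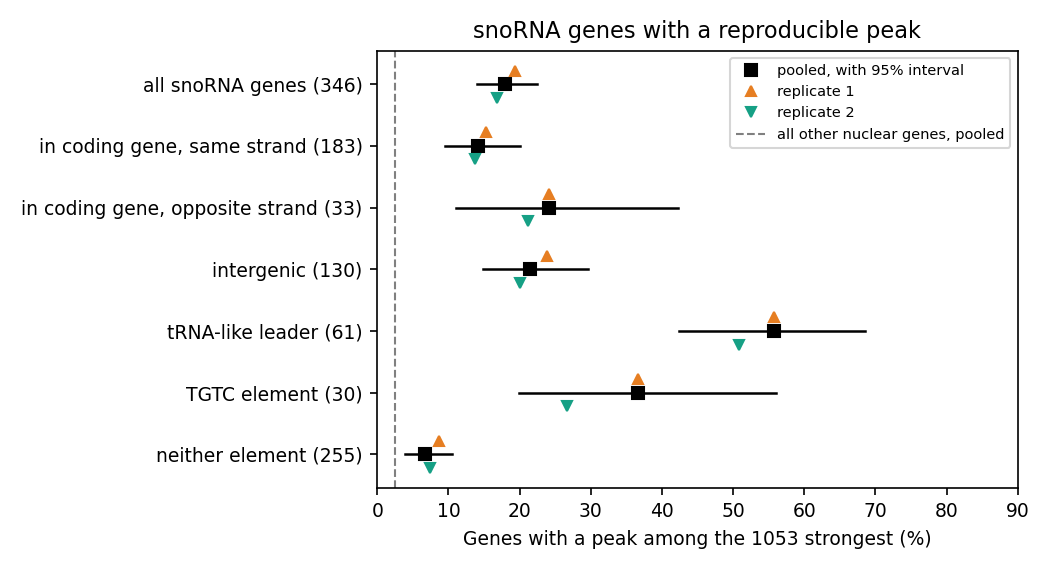
Percentage of snoRNA genes with a peak among the 1053 strongest, for all snoRNA genes, by position and by upstream element, with the number of genes in brackets. Squares with lines give the pooled share and its exact 95% interval, triangles give each replicate, and the dashed line gives the 2.53% of all other nuclear genes. Genes with a tRNA-like leader stand at 55.7% and those with neither element at 6.67%. The upstream elements were read from the called genes, so their shares are descriptions.

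A B box within 150 bp upstream to 50 bp downstream of the 5′ end, on either strand, was found at 27 of the 62 called snoRNA genes (43.5%) and at 26 of the 284 others (9.15%). The same window held it at 6.47% of 46540 other nuclear genes and at 15 of 129 snRNA genes (11.6%). Windows of 200 bp that tile the genome held it in 7.14%. In tRNA genes the letters were found inside the gene body in 587 of 612 (95.9%). At the called snoRNA genes all 27 lay on the strand of the gene. An A box in the form GCNNAGNGG was found in that window at 14 called genes (22.6%), 17 others (5.99%) and 2.66% of other nuclear genes. Among the 31 called genes with the stronger pooled peaks 17 had a B box, and among the 31 weaker ones 10.

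Over the whole stretch from 150 bp upstream to 60 bp downstream, in 10 bp bins on the strand of the gene, the B box started 20 to 11 bp upstream at 16 called genes and at 7 others, the fullest bin of both. The A box started 60 to 51 bp upstream at 13 called genes and 70 to 61 bp upstream at 10, with at most 3 in any other bin. At genes that were not called the A box was spread over the stretch, with at most 7 of the 284 in any bin. These places, and the second form of the A box, were read from the called genes themselves, so the counts that follow are descriptions. With an A box starting 85 to 30 bp upstream or a B box starting from 40 bp upstream to 10 bp downstream, on the strand of the gene, 61 snoRNA genes had a tRNA-like leader. Such a match was present at 21 of 129 snRNA genes (16.3%), close to the 17.6% of all snoRNA genes. It was present at 3.18% of all other nuclear genes and at 2.91% of protein-coding genes.

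**Figure D3:**
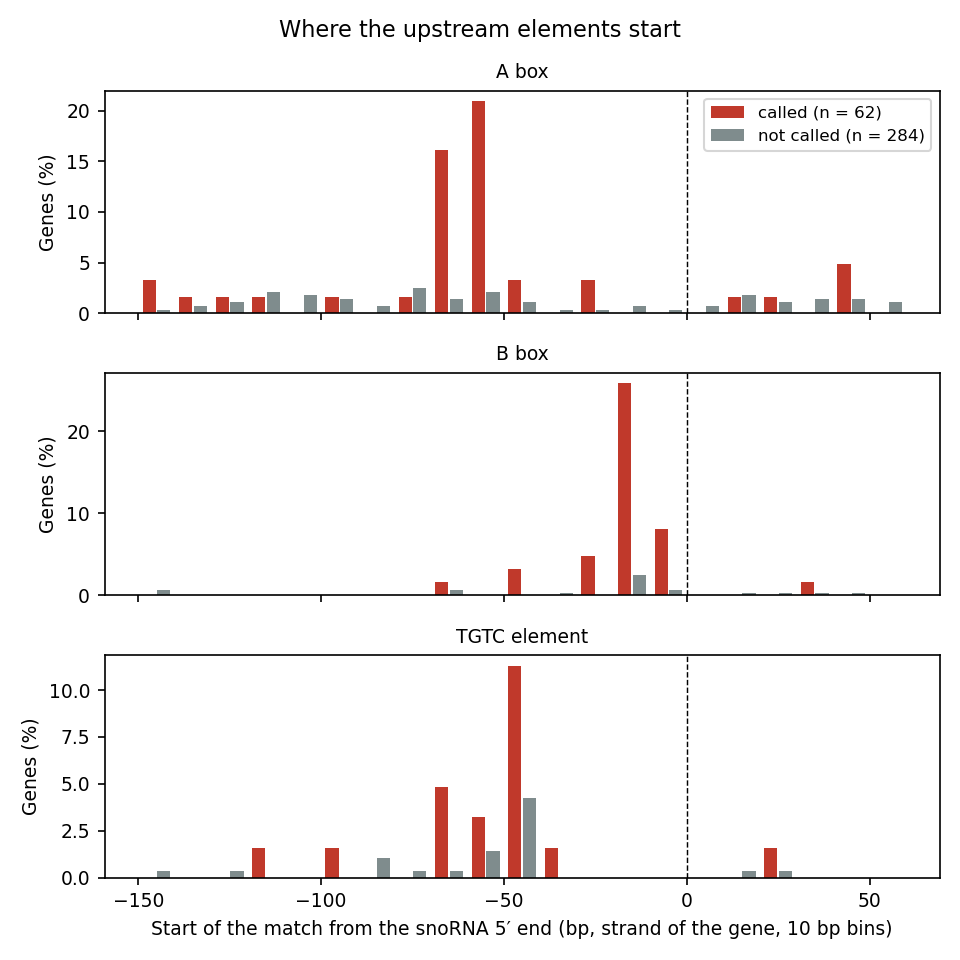
Percentage of called (62) and other (284) snoRNA genes in which an A box, a B box or TGTCNGC starts in each 10 bp bin around the 5′ end (0, dashed line), on the strand of the gene. The B box of called genes gathers just upstream of the 5′ end, and the A box and TGTCNGC lie farther upstream.

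Of the 61 snoRNA genes with a tRNA-like leader, 34 were called (55.7%, interval 42.4 to 68.5%), with 55.7% in replicate 1 and 50.8% in replicate 2. With both boxes, 15 of 18 were called (83.3%), a combination present at 13 of 46540 other nuclear genes. With the A box alone 10 of 27 were called (37.0%), and with the B box alone 9 of 16 (56.2%). Of the 27 leaders at genes that were not called, 15 had a weaker peak in the pooled list and 12 had none. The leaders were found in every position class. Among genes with one, 15 of 31 on the same strand as a host were called, 4 of 7 on the opposite strand and 15 of 23 between genes.

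Host genes of called snoRNA genes with such leaders serve varied functions. M106.6 lies in mix-1, which encodes a condensin subunit, and ranked 414 in the pooled list. ZK546.18, in the Mediator subunit gene mdt-4, ranked 449. T08B2.13, in the phenylalanyl-tRNA synthetase gene fars-1, ranked 501, and K11C4.6, in the beta-spectrin gene unc-70, ranked 136. F38E11.14, in the cyclic nucleotide-gated channel gene cng-3, ranked 106. All 5 were called in both replicates.

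The element TGTCNGC, starting 85 to 30 bp upstream, was found at 32 snoRNA genes, 2 of which also had a tRNA-like leader. It was found too at 28 of 129 snRNA genes (21.7%), at 0.804% of all other nuclear genes and at 0.761% of protein-coding genes. Of the 30 snoRNA genes with this element and no tRNA-like leader, 11 were called (36.7%, interval 19.9 to 56.1%), with 36.7% in replicate 1 and 26.7% in replicate 2. The peaks of these 11, ZK994.7 included, had a median pooled rank of 564, against 114.5 for the 34 with a tRNA-like leader. The ranks overlapped, running from 2 to 1001 and from 16 to 714. This element too was read from the called genes.

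Of the 255 snoRNA genes with neither element, 17 were called (6.67%, interval 3.93 to 10.5%), with 8.63% in replicate 1 and 7.45% in replicate 2. They include C10C6.8 and the pair C51F7.3 and C51F7.4, since the B boxes printed for C51F7.3 lie outside the narrower window. Others were B0334.12, opposite to the potassium channel gene twk-5, at pooled rank 169, and D1046.6, in the cleavage factor gene cfim-2, at rank 131. On the same strand as a host, 6 of 144 genes with neither element were called (4.17%). Between genes, 8 of 90 were called (8.89%).

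At the 62 called genes the pooled summit lay a median of 31.5 bp upstream of the 5′ end, and the replicate peaks at the same genes had medians of 40.5 bp upstream in replicate 1 and 26 bp upstream in replicate 2. It fell between 100 bp upstream and the 5′ end at 46 of them. With a tRNA-like leader 33 of 34 summits lay in that stretch, with a median of 38 bp upstream, and the exception was Y38F2AR.14 at 50 bp downstream. At the 24 called genes with an upstream B box the summit lay a median of 19 bp before the start of the box, and all lay within 60 bp of it. The window for that box was read from called genes, so these distances are descriptions.

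At the 11 called genes with TGTCNGC and no tRNA-like leader the summits fell into separate places. At 4 they lay upstream, at Y37E3.20 the summit lay 17 bp into the gene, and at 6 it lay beyond the 3′ end. Those 6 were C16D9.10 at 168 bp from the 5′ end, T06D8.11 at 181 bp, F01D5.12 at 202 bp, F47G4.9 at 219 bp, Y53F4B.47 at 230 bp and Y55F3BR.9 at 254 bp. The 6 genes are 72 to 88 bp long. Among the remaining called genes, B0334.12 alone had its summit beyond the 3′ end, at 142 bp from its 5′ end. The nearest other annotated RNA gene, piRNA genes aside, lay 114 bp or more from each of the 6 summits. Protein-coding genes and pseudogenes were left out of that search. The summit at F01D5.12 lay in exon sequence of its host gene F01D5.10, between introns 6 and 7, and not in intron 6, which holds the snoRNA gene. Other summits may also lie in or near a protein-coding gene or pseudogene.

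**Figure D4:**
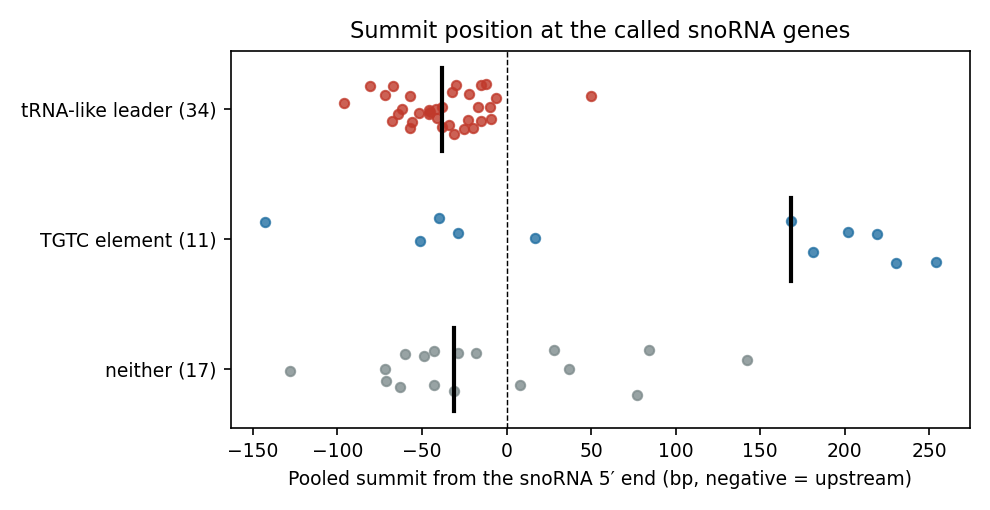
Pooled summit position from the snoRNA 5′ end (0, dashed line), in bp, at each of the 62 called genes by upstream element, with black bars at the medians. Summits at tRNA-like leaders lie just upstream, with a median of 38 bp upstream, and 6 of 11 at genes with TGTCNGC lie 168 to 254 bp downstream.

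Called snoRNA genes were shorter, with a median of 79.0 bp, against 133 bp for those not called. Of 95 genes of up to 100 bp, 38 were called, and of 251 longer ones, 24 (9.56%). Within the tRNA-like leaders 24 of 27 short genes were called (88.9%, interval 70.8 to 97.6%) and 10 of 34 longer ones (29.4%, interval 15.1 to 47.5%). These leaders were defined from called genes, most of which are short, so the split by length is a description. With neither element 7 of 57 short genes were called (12.3%) and 10 of 198 longer ones (5.05%). A run of TTTT within 50 bp after the 3′ end stood at 56 called genes (90.3%) and 185 others (65.1%), against 98.9% of tRNA genes and 60.9% of all other nuclear genes. All 34 called genes with a tRNA-like leader had one. Called or not, 57 of the 61 genes with such a leader had one (93.4%).

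**Figure D5:**
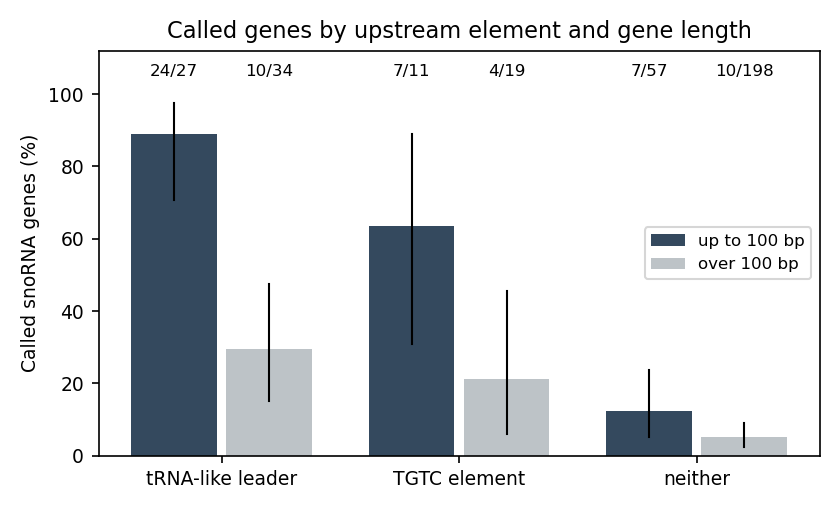
Percentage of snoRNA genes called (y axis, bars from 0) by upstream element and by gene length, up to 100 bp or over 100 bp, with exact 95% intervals as lines and the called and total genes above each bar. Short genes with a tRNA-like leader stand highest, with 24 of 27 called.

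The boxes that define the snoRNA classes were found by simple rules that leave most genes unassigned. The C box TGATGA starting in the first 20 bases with the D box CTGA starting in the last 20 was found in 15 genes, of which 7 were called (46.7%, interval 21.3 to 73.4%). An ACA starting 7 to 3 bases before the 3′ end was found in 84 others, of which 15 were called (17.9%, interval 10.4 to 27.7%). The remaining 247 gave 40 called genes (16.2%). Replicates 1 and 2 gave 46.7% and 33.3% for box C/D genes, and 20.2% and 19% for box H/ACA genes.

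Introns that hold a snoRNA were compared with the other introns of the same 129 host genes, on the host's strand. A reproducible summit lay in 27 of 143 introns with a snoRNA (18.9%, interval 12.8 to 26.3%) and in 5 of 1021 others (0.490%, interval 0.159 to 1.14%). Among the 580 other introns at least as long as the shortest one with a snoRNA, 82 bp, the same 5 gave 0.862%. Per length there were 0.0909 summits per kb in introns with a snoRNA and 0.0174 per kb in these 580. Of the 29 summits in introns with a snoRNA, 21 lay within 200 bp of it. Of the 27 introns, 3 were the first of their gene.

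The promoters of the host genes were counted from the same list. A reproducible summit lay from 1000 bp upstream to 200 bp downstream of the 5′ end of 9 of the 129 hosts (6.98%), and of 2 of the 26 hosts with a called snoRNA gene on the same strand (7.69%). The share over all 19973 protein-coding genes was 2.06%. Ribosomal protein genes, taken by names such as rpl- and rps-, host 21 of the snoRNA genes in 14 host genes. Any ribosomal protein gene under another name counted among the other hosts. None of the 21 was called, in the pooled data or in either replicate (interval 0 to 16.1%). Their best rank was 1564 in the pooled list. Of the 162 same-strand snoRNA genes with other hosts, 26 were called (16%). A tRNA-like leader was present at 1 of the 21 and at 30 of the 162. Promoters of 3 of the 14 ribosomal host genes held a summit, against 13 of all 83 cytosolic ribosomal protein genes (15.7%).

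On the X chromosome 1 of 33 snoRNA genes was called (3.03%, interval 0.0767 to 15.8%), the intergenic C53B7.8 at pooled rank 308, 214 in replicate 1 and 792 in replicate 2. On the autosomes the shares ran from 11.1% on chromosome III to 25.5% on chromosome V. The X chromosome held 258 of the 1053 reproducible peaks (24.5%), and 102 of its 276 tRNA genes were called (37.0%). Of its 33 snoRNA genes, 6 had a tRNA-like leader, of which 1 was called, and 3 had TGTCNGC alone, of which none was called.

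A fixed list of genes for snoRNA-protein particles and biogenesis, with nol-10 and nol-14 among them, was counted in the same way. The list includes fib-1 for the C/D methyltransferase fibrillarin and dkc-1 for the H/ACA pseudouridine synthase. Of its 14 genes found in the annotation, 1 had a reproducible promoter summit. It was xrn-2, which encodes a nuclear 5′ to 3′ exonuclease, at pooled rank 603, 937 in replicate 1 and 430 in replicate 2. Of 19 genes listed for RNA polymerase III and its factors, the snpc genes among them, none had one. That list also held hpo-27, whose link to RNA polymerase III was not checked. Against the 2.06% of all protein-coding genes, lists of this size would hold few or no bound genes, so neither count sets its list apart.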

How the data were processed

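Per the labels, coordinates are in assembly ce11, which has the sequence of WBcel235, and all lists were called against 1 control alignment shared by the replicates. The aligner and peak caller were not given in the sources used here, and the depth of each library is unknown. The deposited lists give, per peak, the signal that the authors' caller wrote, a −log10 q-value, not used to rank, and the summit. Peaks were compared between lists by signal rank only. Genes came from Ensembl release 115 and bases from RefSeq. Shares carry exact Clopper-Pearson 95% intervals (scipy 1.17.1). Peak joining and motif search were tested on simulated data. Nothing was tested for significance, since there is 1 group. The members, lists and motifs were chosen with earlier results of these data known, and the positions of the boxes and TGTCNGC after seeing the called genes. Genes were named by rule: the 15 strongest, the 4 strongest of each position class, 3 on either side of the threshold, the 4 with the largest replicate rank difference, and called genes with ribosomal hosts. Further names, mainly genes with unusual summits and examples of hosts, were chosen after their values were seen. Sequences shown are the strongest called with and without a B box, leaving out C51F7.4 and genes on chromosome I, and 4 with TGTCNGC, also not on chromosome I, were added.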

Additional observations from a re-analysis of the deposited data

How the results depend on the processing

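Over 15 counts and positions, 86 alternatives were computed, and 82 stayed within 1.5 times the main count or within 1 SD between replicates. The alternatives were other summit distances, peak overlap, 526 or 2106 peaks in place of 1053, each peak counted once, leaving out snoRNA genes near tRNA genes, other motif windows and each replicate alone. The 4 that moved follow. With a B box searched from 100 bp upstream to the 5′ end, 12 snoRNA genes that were not called had one, against 26 in the wider window. Of the genes with TGTCNGC and no tRNA-like leader, 6 were called with a summit within 100 bp and 4 with the strongest 526 peaks, against 11. Of those with neither element, 28 were called with the strongest 2106 peaks, against 17. The alternatives on upstream elements were chosen after seeing the data. No paired analysis was possible because there is 1 group. With 1 replicate left out, 58 to 67 snoRNA genes were called, of which 25 to 28 on the same strand as a host, 7 to 8 on the opposite strand and 26 to 31 intergenic. Among called genes, 24 to 27 had a B box, and among the others 26 to 29. Box C/D genes gave 5 to 7 and box H/ACA genes 16 to 17. Introns with a snoRNA and a summit numbered 27 to 30, and other introns with one 5 to 6. Genes called with a tRNA-like leader numbered 31 to 34, with TGTCNGC 8 to 11 and with neither 19 to 22. The median summit position ran from -35 to -26 bp, with negative values upstream. No control strain and no depth were at hand. A gene that was not called is therefore not shown to be unbound. Nor is a peak at a called gene shown to depend on the tagged protein.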
